A study of Mus musculus with 5 samples.

Results

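Clone 1, a line of mouse CD8+ T cells grown from 1 sorted founder cell, was compared with the non-clonal CD8+ population. The comparison takes in 3 of the 5 samples of the series, 2 replicates of clone 1 and 1 of the population. The deposited data pool both clone replicates in 1 file, so 2 libraries were set against each other. All cells came from C57BL/6 mice, as primary naive T cells purified from spleen, with no genetic alteration in the labels. Culture was in RPMI medium with IL2 at 1.2 ng/ml for 2 days. CD8+ cells were sorted, and antibodies to CD3 and CD28 were used. The labels give 15 cell divisions for clone 1 and none for the population. Clone 2, a line from another founder given the same 15 divisions, is shown only as context. Members of the comparison were chosen by depth alone: 801448 CpGs of 3258192 (24.6%), on 179539 of 531368 fragments (33.8%), had at least 10 molecules in each library. Among fragments with at least 4 CpGs, 83158 had at least 10 molecules in each library with at least 4 CpGs observed.

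Methylation of the cytosine in CpG dinucleotides is copied to the new DNA strand after replication, mainly by the enzyme DNMT1. DNMT3 enzymes add methyl groups to unmethylated sites, and TET enzymes start their removal. A dividing cell thus hands on its methylation state, with some gain and loss, and a library made from many unrelated cells mixes the states of many lineages. CpG-rich stretches, often promoters, are mostly unmethylated in mammalian cells, while the rest of the genome is mostly methylated.

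DNA was cut with MspI, which cuts CCGG whether or not its CpG is methylated, joined to short random tags and treated with bisulfite, which converts unmethylated cytosines and spares methylated ones. Each line of the data is 1 tagged molecule of a numbered restriction fragment, with its calls along the fragment. Such a molecule shows which states sat together on 1 DNA strand. Molecules are drawn below as a row of ● (methylated), ○ (unmethylated) and · (not observed), 1 sign per CpG in fragment order. The fragments carry numbers without coordinates, so gene, promoter and cell type marker annotation was not analysed here. Clone 1 had 11969176 molecules from 16036644 reads, and the population had 8463942 from 17003711. Tested CpGs had a median of 21 molecules in clone 1 and 17 in the population. With 1 library each there is no spread between replicates or clones: the tests below compare these libraries, not conditions, and their intervals cover counting error only. Clone 1 stands for 1 founder, and the tagged molecules are not tied to single cells.

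The bulk of the genome sampled was at nearly the same level in both libraries. Mean CpG methylation was 53.7% in clone 1 and 52.6% in the population, a difference of 1.05 percentage points. Clone 1 was higher in 20 of 20 blocks of consecutive fragment numbers (range 0.587 to 2.55, SD over blocks 0.412). Clone 2 was also above the same population library in 20 of 20 blocks (range 1.01 to 2.41), so this was not particular to clone 1. Levels lay within 10 points of each other at 78.4% of CpGs and were at least 20 points apart at 11.1%. CpGs at the depth limit had a mean difference of 1.08 points with 10 molecules in the shallower library, and of 1.06 with 9, just outside the limit.

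A minority of single CpGs differed far more. At an adjusted p under 0.05 (two-sided Fisher's exact test, Benjamini-Hochberg adjustment over all CpGs tested) and a difference of at least 20 points, 14992 CpGs were called, 1.87% of those tested. Clone 1 was higher at 8486 of them (1.06% of those tested) and lower at 6506 (0.812%). CpGs called higher had a median of 25% in the population and 93.5% in clone 1. Those called lower went from a median of 84.8% to 18.8%. In clone 2 the medians at these CpGs, where it had at least 10 molecules, were 46.7% over 7638 CpGs called higher and 90.0% over 5646 called lower. The difference reached 80 points at 650 CpGs called higher and at 440 called lower. Higher calls were 56.6% of all calls, but 45.2% with at least 30 molecules, 41.7% on molecules with at least 2 reads and 45.8% when each fragment gave 1 CpG, so which direction prevailed turned with the CpGs counted.

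The direction of the calls differed with the number of CpGs on the fragment. Fragments with 3 CpGs had 519 higher and 1059 lower calls, 2.49% of their CpGs. Those with 5 to 9 CpGs had 4036 and 3359 (2.32%), and those with 10 to 19 had 2575 and 613 (1.31%). On fragments with at least 20 CpGs, 344 CpGs were higher and 37 lower, 0.557% in all. Starting levels differed as well, with a population mean of 84.3% on fragments with 3 CpGs, 69.7% with 5 to 9, 21.7% with 10 to 19 and 4.79% with at least 20. A CpG near either end of the scale can be called in 1 direction only, and the part of starting level was not tested. The shares called also moved with depth, from 0.935% of CpGs with 10 to 14 molecules in the shallower library to 4.61% of those with 30 to 49, with 1.47% of the 1226 CpGs at 50 or more, so a CpG that was not called was not shown to be equal.

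Both strands of a fragment gave separate molecules, and the strands of 1 library served as a measure of background. At 127335 CpGs with at least 10 molecules on each strand of both libraries, the same test between strands called 33 CpGs (0.0259%) in the population and 62 (0.0487%) in clone 1. Clone 1 against the population gave 980 calls (0.77%) on the plus strand and 978 (0.768%) on the minus strand. Setting opposite strands of the libraries against each other gave 1183 calls (0.929%) for clone 1 plus and 1068 (0.839%) for clone 1 minus. The mean absolute difference was 6.42 points between the strands of the population and 4.95 between those of clone 1, against 8.45 between the libraries on the plus strand. With at least 20 molecules on each strand only 1164 CpGs were left, and there the population's strands differed at 2.06% of CpGs and the libraries at 1.72%, so the gap between library and strand calls was not seen at these deepest CpGs.

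CpGs called on 1 strand kept their direction on the other. Of 483 CpGs called higher on plus strand molecules, 441 (91.3%) were at least 20 points higher on minus strand molecules, which the call had not used, and 0 were 20 points lower. Of 497 called lower, 467 (94.0%) were at least 20 points lower and 1 was 20 points higher. Over all these CpGs, 12.5% were off by at least 20 points in either direction. The mean difference went from 69.1 points on the strand of the call to 51.7 on the other for higher CpGs, and from -68.2 to -51.4 for lower ones.

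CpGs that were mixed in the population stood more often at the extremes in clone 1 than on the population's own other strand. To keep the choice of CpGs apart from the levels compared, minus strand molecules of the population set the class and plus strand molecules gave the levels of both libraries. At 4980 CpGs in the 40 to 60% class, 37.8% of CpGs stayed at 40 to 60% in the population's plus strand and 23.3% stood there in clone 1. The share at or above 90% was 4.44% in the population and 21.5% in clone 1, and the share at or below 10% was 2.27% and 11.7%. The mean of this class was 53.6% in the population and 58.1% in clone 1. Over the 22060 CpGs at 20 to 80% the mean was 2.88 points higher in clone 1, and higher in 20 of 20 blocks.

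At the ends of the scale, mid-level CpGs were more frequent in clone 1. Among 50015 CpGs under 20% on the minus strand, 0.514% stood at 40 to 60% in the population and 2.29% in clone 1. Among 77606 CpGs over 80%, the shares were 0.789% and 2.41%. A library that differs from the population in any way leaves the population's middle class, so the classes were also set on clone 1. Of 7641 CpGs at 40 to 60% on minus strand molecules of clone 1, 50.1% stood at 40 to 60% on its plus strand and 19.5% in the population, where 16.5% were at or above 90% and 12.3% at or below 10%. Mid-level CpGs of either library were thus often at an extreme in the other.

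**Figure D1:**
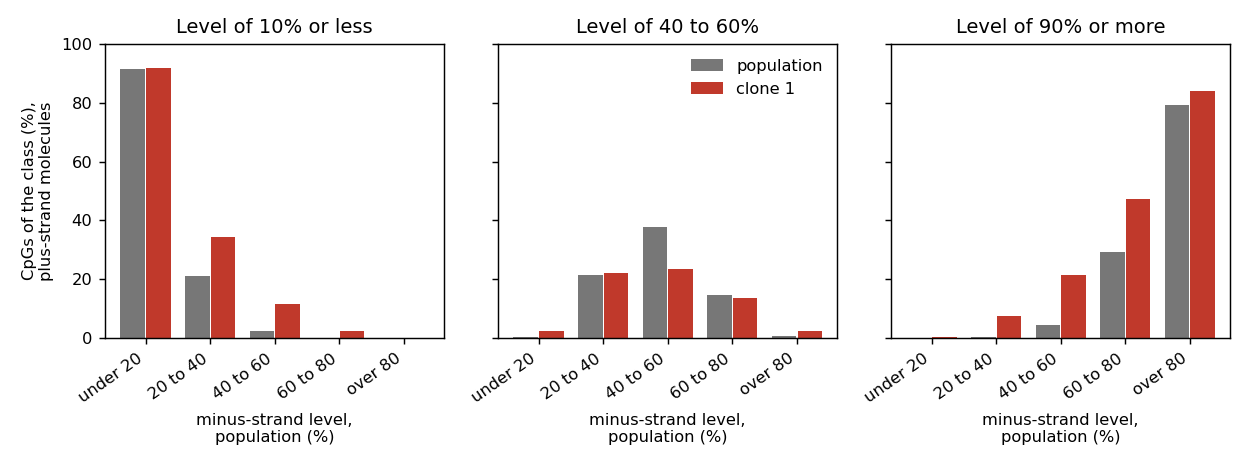
Bars give the share of CpGs (percent) at 10% or less, at 40 to 60% and at 90% or more on plus strand molecules of the population (grey) and clone 1 (red), in 5 classes of the population's minus strand level. In the 40 to 60% class, clone 1 has 21.5% of CpGs at or above 90%, against 4.44% in the population, and fewer CpGs in the middle.

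Most called CpGs did not stand for a shift of their whole fragment. Of 11566 fragments with a called CpG, 9446 had exactly 1. Among the 8100 with at least 4 tested CpGs, every CpG was off by at least 20 points in the called direction on 319 (3.94%). Exactly 1 CpG was off in the called direction on 3235 (39.9%), whether or not others were off in the opposite one. On 2120 fragments another CpG was off by as much in the opposite direction. The largest number of called CpGs on a fragment was 17.

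CpGs called alone, with no other tested CpG of their fragment off by 20 points the same way, were more often lower than higher. The 1303 higher ones had a mean of 25% in the population and 78.5% in clone 1, while the other CpGs of their fragments were at 36.5% and 33.8%. The 2022 lower ones went from 84.6% to 31.1%, amid other CpGs at 85.1% in the population and 89.0% in clone 1. The levels of the other CpGs describe the choice of lone CpGs, which required them not to be off the same way. Of these lone losses, 843 stood at 40 to 60% in clone 1 and 551 at or below 10%. Clone 2 had a median of 93.5% at the 1816 of them it covered. CpGs with at least 1 other of their fragment off the same way numbered 5712 higher and 2255 lower.

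**Figure D2:**
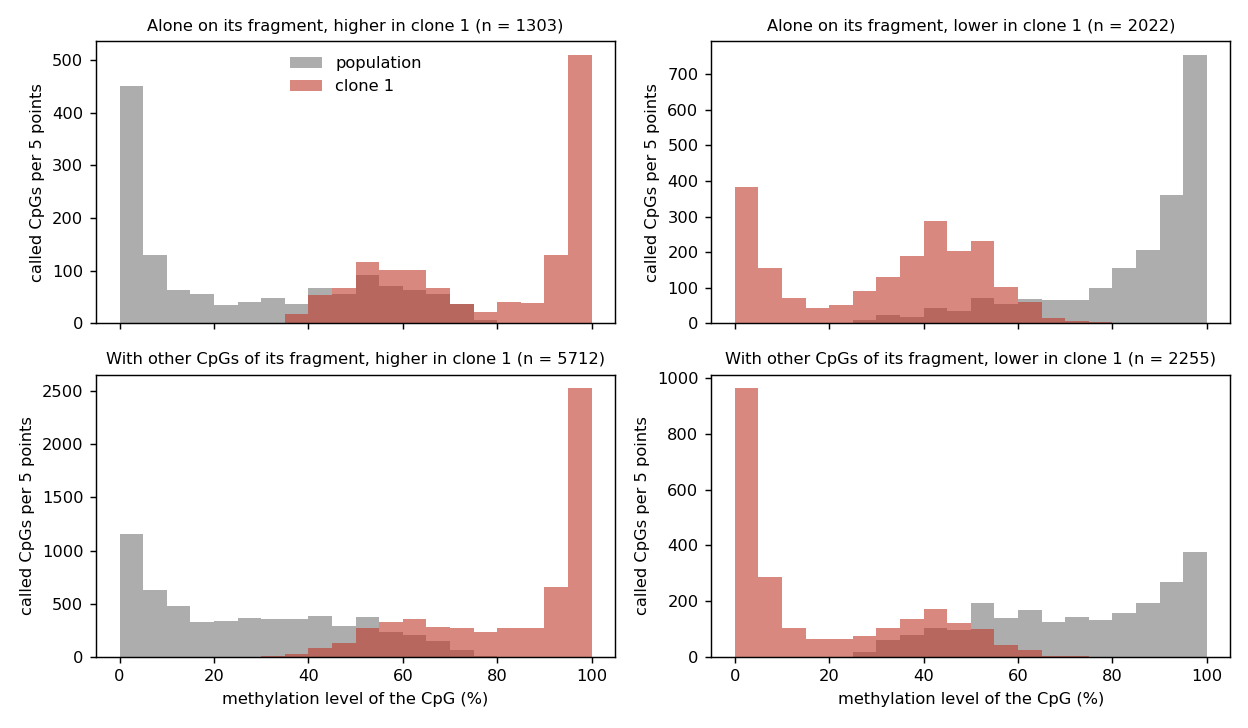
Histograms give called CpGs per 5-point bin of methylation level (percent) in the population (grey) and clone 1 (red), for CpGs called alone on their fragment (top) or with others (bottom), higher (left) or lower (right) in clone 1. Lone lower CpGs have a group in the middle, with 843 of 2022 at 40 to 60%.

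Within fragments, clone 1 more often set fully methylated and unmethylated CpGs side by side. Of 85825 fragments with at least 4 tested CpGs, 417 (0.486%) in the population held at least 1 CpG at or below 10% and at least 1 at or above 90%. In clone 1 there were 3366 (3.92%), of which 278 were also counted in the population. With at least 20 molecules per CpG in both libraries, the counts were 57 and 664 of 22414 fragments. Where in addition clone 1 had at most 30 molecules per CpG, they were 36 and 417 of 15205. Plus strand molecules alone gave 168 and 1147 of 32488. On the 56640 fragments that clone 2 covered as well, the population had 220, clone 1 had 2041 and clone 2 had 2030. Such fragments were thus several times more frequent in clone 1 at each of these depths.

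Whole fragments were then compared on their molecules, counting a molecule as methylated where over 50% of its observed CpGs were. A molecule was mixed where over 20% and under 80% of its observed CpGs were methylated. Most fragments kept their state. Of 34421 fragments with at most 10% methylated molecules in the population, 33185 (96.4%) had at most 10% in clone 1. Of 38583 with at least 90%, 37064 (96.1%) had at least 90% in clone 1. Of 1973 fragments at 40 to 60% in the population, 536 (27.2%) were at 40 to 60% in clone 1, while 362 had at least 90% and 142 at most 10%. Counting error of the population enters these counts, since the same molecules set the class.

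The fragment test called 804 of 83158 fragments (0.967%), 601 higher in clone 1 (0.723%) and 203 lower (0.244%), while 3678 had an unadjusted p under 0.05. Fragments called higher had a median of 25% methylated molecules in the population. Their median was 93.2% in clone 1 and, for the 558 covered, 59.1% in clone 2. Those called lower were at 78.9%, 11.8% and 82.0% (186 covered). Higher calls were 74.8% of the total. That share depended on when a molecule counts as methylated: 55.3% where it needed at least 80% of its CpGs and 87.7% where it needed 20%. It was 58.0% when only the deepest CpG of each fragment was tested.

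**Figure D3:**
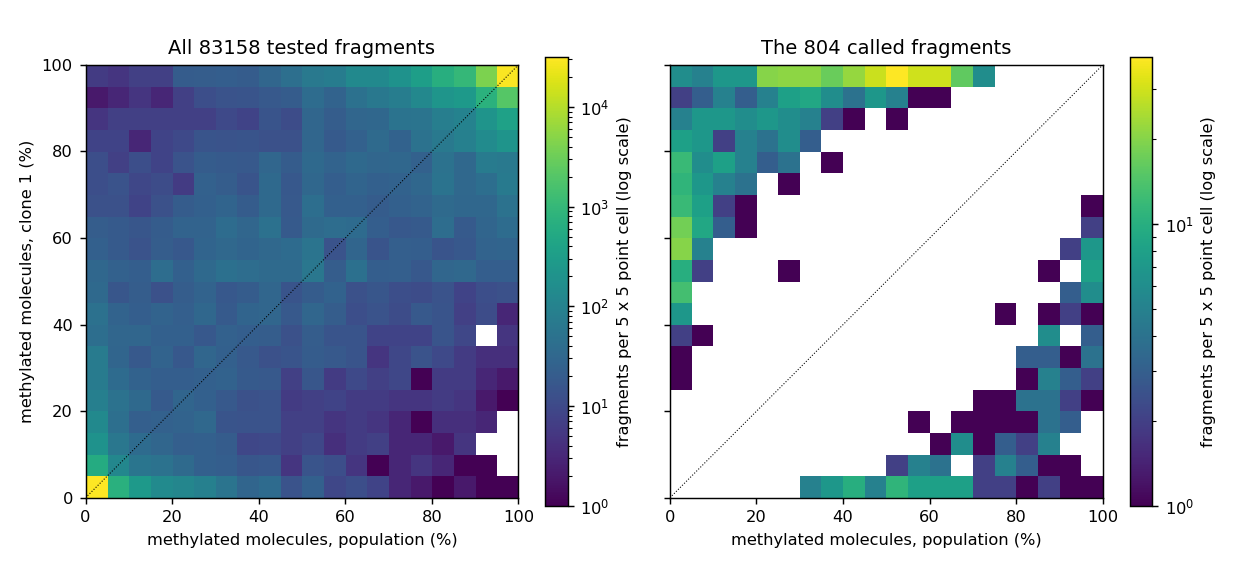
Colour gives fragments per cell of 5 by 5 points (log scale) by percent of methylated molecules in the population (horizontal) and clone 1 (vertical), for all 83158 tested fragments (left) and the 804 called ones (right). Most fragments lie in the 2 corners where both libraries have the same state, and 601 called fragments lie above the diagonal and 203 below.

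Full switches from 1 state to the other were rare. At most 10% of molecules in the population and at least 90% in clone 1 were methylated on 18 fragments, and the opposite held on 3. The fragments named here and below follow a fixed rule, the called ones with the widest difference or, within a kind of change, the most molecules. On fragment 984173, which holds 5 CpGs, 0 of 11 population molecules were methylated, while 23 of 23 clone 1 molecules were (95% Wilson intervals 0 to 25.9% and 85.7 to 100%, adjusted p 6.99e-06 by Fisher's exact test). Clone 2 had 11 of 11. The commonest plus strand pattern was ○○○○· on 4 of 8 molecules in the population and ●●●●· on 11 of 25 in clone 1. On the minus strand these were ·○○○○ on 4 of 9 and ·●●●● on 4 of 10, so both strands of the fragment differed.

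Dense fragments also switched. On fragment 1395482, with 23 CpGs, 1 of 21 population molecules was methylated, against 32 of 33 from clone 1 and 20 of 20 from clone 2. Fragment 1276599, with 15 CpGs, was methylated on 0 of 17 population molecules and on 27 of 28 from clone 1 (adjusted p 8.48e-08 by Fisher's exact test). In clone 2 only 3 of 19 of its molecules were methylated. The population's commonest plus strand pattern there was ○○○○○○○○○○○○○○·, on 4 of 11 molecules. Clone 1 had no common pattern: its 19 minus strand molecules carried 19 patterns, where strings that differ in unobserved CpGs count as unlike, here and below. Over both strands, CpGs 2, 3 and 4 were methylated on 22 of 24, 24 of 25 and 25 of 25 molecules and CpG 8 on 8 of 24. This fragment was highly methylated in clone 1, but not the same on every molecule.

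Neighbouring fragments 139822 and 139823, with 7 and 10 CpGs, both switched. Methylated molecules numbered 2 of 30 and 0 of 11 in the population, 38 of 39 and 17 of 17 in clone 1. Clone 2 had 28 of 29 and 10 of 10. This pair was thus high in both clones.

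Of the fragments with a switch to the unmethylated state, fragment 998893 holds 5 CpGs and was methylated on 20 of 21 population molecules but on 0 of 19 from clone 1 (intervals 77.3 to 99.2% and 0 to 16.8%, adjusted p 1.01e-06 by Fisher's exact test). All 7 clone 2 molecules were methylated. The commonest minus strand pattern was ·●●●● on 8 of 22 molecules in the population. In clone 1 it was ·○○●● on 7 of 18 and ·○○○● on 5. Across both strands, clone 1 had 0 of 11, 1 of 30 and 0 of 30 methylated calls at CpGs 1, 2 and 3, then 10 of 24 at CpG 4 and 15 of 15 at CpG 5. The loss covered the first CpGs of the fragment and not its last one.

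Fragment 1286539 holds 6 CpGs. In the population 15 of 16 of its molecules were methylated, against 3 of 47 in clone 1, with 15 of 32 in clone 2. Clone 1 carried a pair of unlike patterns in similar numbers, ●●○○○· on 12 and ○○○●○· on 11 of 30 plus strand molecules. The minus strand showed the same pair, ·●○○○○ on 6 and ·○○●○○ on 5 of 17. In the population the commonest plus strand pattern was ●●●●●· on 4 of 10. No single CpG level shows this pairing: clone 1 had 14 of 28, 23 of 46 and 20 of 47 methylated calls at CpGs 1, 2 and 4.

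Fragment 1027156, also with 6 CpGs, was methylated on 27 of 31 population molecules and on 1 of 39 from clone 1 (adjusted p 1.44e-09 by Fisher's exact test). Clone 2 had 30 of 31. Its minus strand molecules in clone 1 were ·○○○○○ on 7 and ·○●●○○ on 7 of 19, against ·●●●●● on 7 of 20 in the population. On the plus strand ●○○○○· was on 10 of 24 and ·○●●○·, with CpG 1 unobserved, on 4. Over both strands, CpGs 3 and 4 were each methylated on 19 of 42 clone 1 molecules. Other wide losses were more uniform. Fragment 216735 was methylated on 12 of 14 population molecules and 0 of 27 from clone 1, of which 0% were mixed. Fragment 69463 had 18 of 19 and 0 of 12, with 16.7% mixed in clone 1. Clone 2 had 1 of 22 and 2 of 13 methylated molecules on these fragments.

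A larger set of fragments stood at either end of the scale in the population and in the middle in clone 1, with counting error in both levels. From at most 10% in the population to 40 to 60% in clone 1 there were 247 fragments, 0.718% of the 34421 that started there, and 60 were called. From at least 90% there were 153, 0.397% of 38583, and 30 were called. On the called fragments of the first kind, mixed molecules, as defined above, were 66.4% of clone 1 molecules, against 29.9% in the population. On those of the second they were 57.8% against 22%. The same molecules set these kinds, so the shares are in part fixed by the choice. Of these called fragments, 58 and 28 had at least 5 molecules on each strand. Both strands of clone 1 stood at 20 to 80% on 54 of the 58 and 26 of the 28. The strands stood at opposite states on 0 of both.

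On fragment 436283, with 5 CpGs, 0 of 32 population molecules were methylated and 20 of 38 from clone 1, beside 0 of 31 from clone 2. On the plus strand ●○○○· made up 11 of 16 molecules in the population, and ●●●○· made up 9 of 23 in clone 1. On the minus strand of clone 1, ·●●○● was carried by 11 of 28 molecules. CpG 4 was thus unmethylated in the commonest patterns of both libraries. Fragment 1113463, also with 5 CpGs, went from 0 of 34 to 17 of 35 methylated molecules, with 6 of 21 in clone 2. Its molecules in clone 1 were varied, with 13 patterns over 23 plus strand molecules, among them ●●●●· on 5, ○●●●· on 4 and ●○○●· on 3.

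In the other direction, fragment 63982, with 6 CpGs, was methylated on 33 of 34 population molecules and on 24 of 48 from clone 1 (95% interval 36.4 to 63.6%). Clone 2 had 42 of 42. The commonest minus strand patterns of clone 1 were ·○○○●● on 12 and ·●●●●● on 5 of 27 molecules, and those on the plus strand were ●●●●●· on 9 and ○○○○●· on 4 of 29. Its first 4 CpGs were lost together on part of the molecules, while CpGs 5 and 6 were methylated on 46 of 52 and 23 of 26. Fragment 1139307, with 5 CpGs, went from 32 of 34 to 29 of 49, with 47 of 47 in clone 2. Its minus strand in clone 1 had ·●●●● on 11 and ·○○●● on 10 of 31 molecules. Both fragments thus held a fully methylated pattern beside 1 that had lost a run of CpGs.

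**Figure D4:**
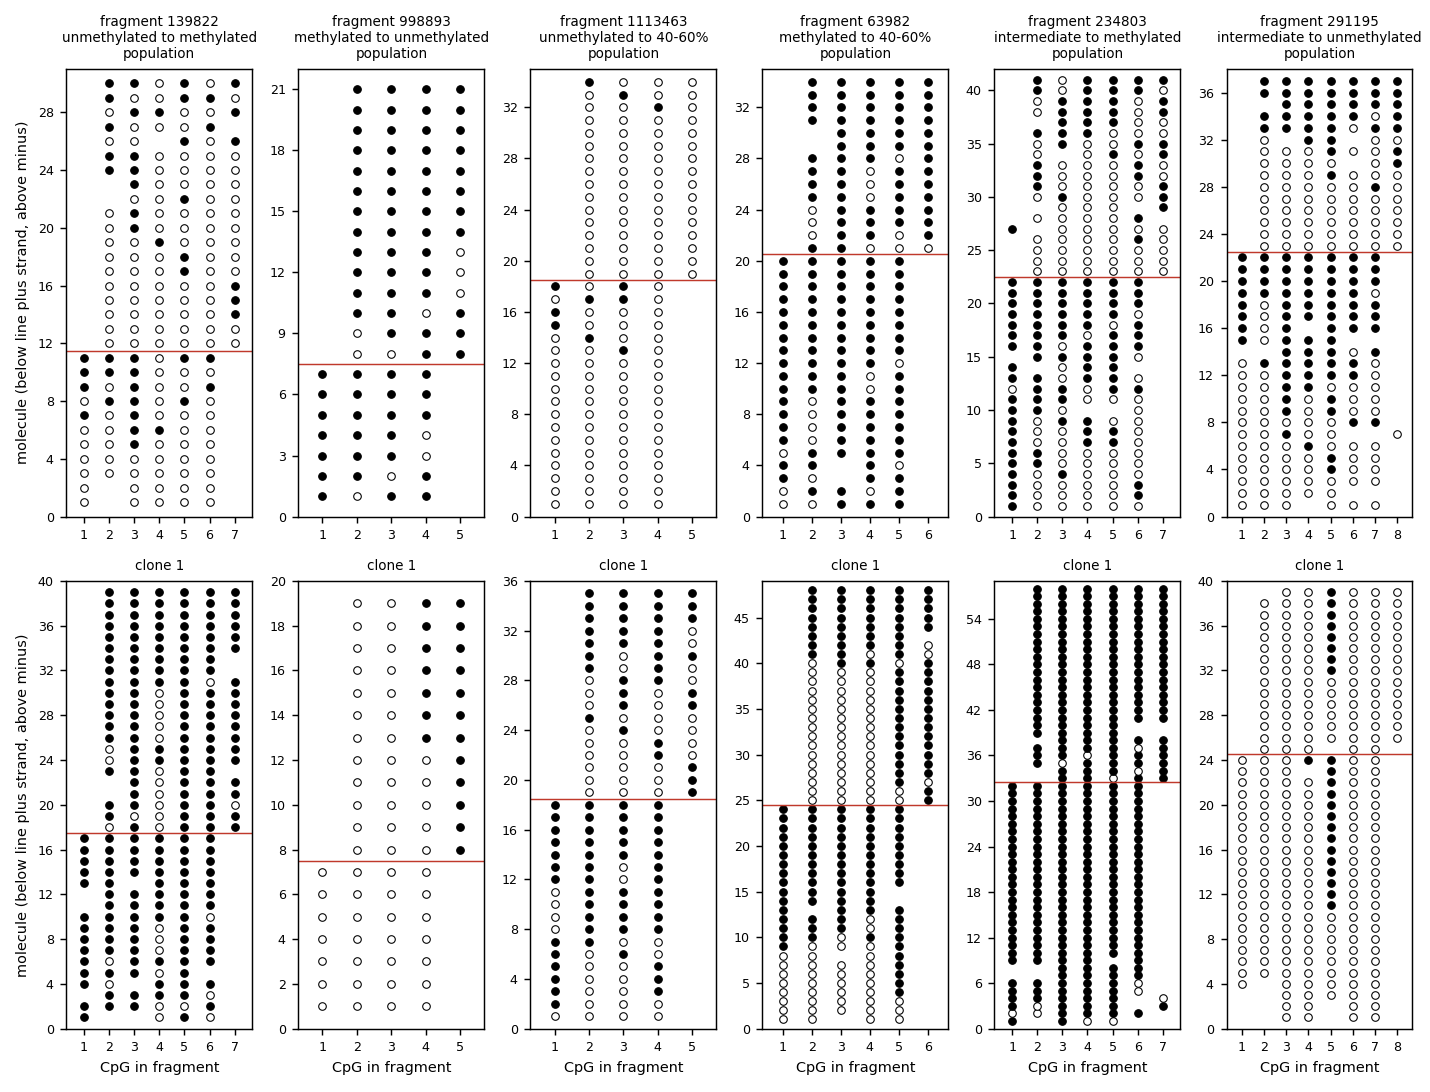
Molecules of 6 named fragments, 1 for each kind of called change, in the population (top) and clone 1 (bottom), with 1 molecule per line, 1 CpG per column, filled circles for methylated and open circles for unmethylated calls, and plus strand molecules below the red line. Fragment 234803 is mixed in the population and nearly all filled in clone 1, and fragment 291195 is open in clone 1 except at CpG 5.

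Called fragments at 20 to 80% in the population stood at the upper end in clone 1 more often than at the lower end. Of 6396 fragments at 20 to 80% methylated molecules in the population, 297 were called and at least 90% in clone 1. Another 84 were called and at most 10%. Of the 280 high ones that clone 2 covered, 111 were at least 90% in clone 2 and 27 at most 10%. Of 78 low ones, 16 and 11 were. Mixed molecules were 50.4% in the population and 27.9% in clone 1 on the high fragments, and 49.3% and 55.3% on the low ones. The same molecules set these kinds, so the shares are in part fixed by the choice. Low fragments differed among themselves: mixed molecules of clone 1 were 0% on fragment 199507, 2.56% on 291195 and 89.2% on 760730.

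Fragment 234803, with 7 CpGs, was methylated on 16 of 41 population molecules (95% interval 25.7 to 54.3%). Of 58 molecules from clone 1, 57 were methylated (90.9 to 99.7%), and clone 2 had 45 of 49. The population's 22 plus strand molecules showed 17 patterns, while ●●●●●●· alone made up 23 of 34 in clone 1 and ·●●●●●● made up 18 of 29 on the minus strand. Many patterns in the population thus stood against 1 main pattern per strand in clone 1.

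On fragment 291195, with 8 CpGs, 16 of 37 population molecules were methylated and 0 of 39 from clone 1, with 21 of 31 from clone 2. Its plus strand in clone 1 was ○○○○●○○· on 12 and ○○○○○○○· on 6 of 26 molecules, and its minus strand was ·○○○●○○○ on 7 and ·○○○○○○○ on 6 of 16. CpG 5 was methylated on 22 of 36 molecules, and the other 7 CpGs had 0 or 1 methylated calls each. A single CpG was thus held at an intermediate level on an otherwise unmethylated fragment. Fragment 760730, with 11 CpGs, was methylated on 14 of 33 population molecules and on 0 from either clone, of 37 and 45. Its 19 minus strand molecules in the population carried 19 patterns, and ·○●○○○○○●●● made up 10 of 24 in clone 1, against ·●○○○○●○●○○ on 3. CpGs 3, 9 and 10 were methylated on 34.4%, 62.5% and 41.9% of molecules in the population and on 61.8%, 94.4% and 69.4% in clone 1, so single CpGs were higher although no clone 1 molecule passed 50%.

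Fragments at 40 to 60% in both libraries numbered 536. Their molecules were mixed to 50% in the population and 52.2% in clone 1, and both strands of clone 1 were at 20 to 80% on 404 of 446 with at least 5 molecules on each, with the strands in opposite states on 5. On the deepest, fragment 1389139 with 20 CpGs, 51 of 108 population molecules were methylated and 74 of 133 from clone 1. For fragment 1389152, with 16 CpGs, the population had 39 of 96, clone 1 had 45 of 104 and clone 2 had 49 of 105. Its plus strand was ●●●●●●●●●●●●●●●· on 3 of 29 molecules in the population and 7 of 35 in clone 1, and its minus strand was ··○○○·○○○○○○○○○○ on 10 of 72 and 11 of 74. Fully methylated molecules, quoted from the plus strand, and unmethylated ones, quoted from the minus strand, thus occurred on this fragment in both libraries. Its minus strand molecules came near the 77 tags in use, so separate molecules there can share a tag. The third, fragment 831302 with 14 CpGs, had 24 of 40 methylated molecules from the population and 30 of 53 from clone 1. Its minus strand was ········○●●○○● on 13 of 28 and 17 of 37 molecules, and its commonest plus strand pattern in clone 1 was ●●●●●●●●●●●●●· on 6 of 16, so the commonest patterns of its strands were unlike. On fragment 831302, molecules with at most 20% of their CpGs methylated were 0% in both libraries. Each of its molecules not counted as methylated was thus mixed.

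The total number of fragments at 40 to 60% was close in the libraries, 2012 in clone 1 and 1973 in the population. Among those with at least 20 molecules in both, 701 were at 40 to 60% in clone 1. In the population 199 of these were at 40 to 60%, 68 were at most 10% and 42 at least 90%. Of 670 at 40 to 60% in the population, 199 were so in clone 1, 50 were at most 10% and 124 at least 90%. Like numbers of mid-level fragments thus lay in part on unlike fragments, with counting error in both levels. At both ends, clone 1 had more fragments at or above 90%, 40828 against 38583, and slightly fewer at or below 10%, 34218 against 34421.

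On fragments that were mixed in the population, neighbouring CpGs of a molecule shared their state as often in clone 1 as in the population. Over 6662 pairs of adjacent CpGs on fragments at 20 to 80% in minus strand population molecules, 72.9% of same-molecule pairs agreed in either library. Pairs taken from different molecules agreed at 58.8% in the population and 63.5% in clone 1. The excess within molecules was thus 14.1 points in the population and 9.35 in clone 1, and at 6 CpGs apart it was 16.4 and 11.6 over 1160 pairs. The fragments were chosen on population levels alone, so the excesses of the libraries cannot be compared as like for like. These pairs share fragments and molecules and are given as a description.

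MspI cuts between the cytosines of CCGG and leaves the CpG of its site on both sides of the cut. Where adjacent numbers adjoin in the genome, the last CpG of a fragment, read on minus strand molecules, and the first CpG of the next, read on plus strand molecules, are thus the opposite strands of 1 CpG, and such a CpG counts in both fragments. Over 5736 such pairs, the population levels of both strands had a Pearson correlation of 0.953. The differences of clone 1 from the population had 0.668. Of 151 pairs with the minus strand off by at least 50 points, the plus strand was off by at least 20 the same way in 131 and the opposite way in 0. These values describe agreement of the strands at the cut sites, from separate molecules of the same libraries.

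Whole fragments shared differences with their neighbours over several fragment numbers. The difference of clone 1 from the population had a correlation between fragments of 0.402 at a step of 1 number (11384 pairs), 0.284 at 2 (9574 pairs), 0.201 at 3 and 0.142 at 5. The points share both libraries, and at a step of 1 the CpG of the cut as well. Of 128 called fragments whose next number was also tested, the next was called in the same direction in 26 (20.3%) and in the opposite direction in 0, against 0.967% of all fragments called. At a step of 2 it was called the same way in 18 of 87 (20.7%), and at a step of 4 in 10 of 70 (14.3%) with 1 the opposite way. There were 25 runs of called neighbours, which held 51 fragments, all higher in clone 1. The longest run held 3, fragments 119108 to 119110, with a mean of 11.3% methylated molecules in the population and 73.8% in clone 1.

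In most blocks along the fragment numbers clone 1 was slightly higher. In 160 blocks the mean difference of clone 1 from the population ranged from -0.249 to 4.35 points (median 0.945) and was above 0 in 156. The highest was the 105th block, fragments 1036182 to 1046144, where 5.34% of CpGs were called, 206 higher and 41 lower. Within it, fragments 1039000 to 1044999, a stretch chosen after its values were seen as the longest run of 1000-number windows with over 2 times the median share called, had 3110 tested CpGs at 52.7% in the population and 58.5% in clone 1. There 222 CpGs (7.14%) were called, 192 higher and 30 lower, and 10 of 294 fragments (3.40%) were called, all higher. Clone 2 lay 3.00 points above the same population library in that block, which both comparisons share. Among the 20 larger blocks the last, fragments 1514419 to 1594124, had the widest mean difference, 2.55 points, with 3.22% of CpGs called, 397 higher and 443 lower. Clone 2 was 2.41 points above the population there, against a median of 1.55 over the 20 blocks. Molecules of clone 1 per molecule of the population stayed between 0.95 and 1.07 times their median over the 160 blocks. In the 6 windows of the stretch the ratio was above its median, from 1.01 to 1.13, and its part in the result was not tested.

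**Figure D5:**
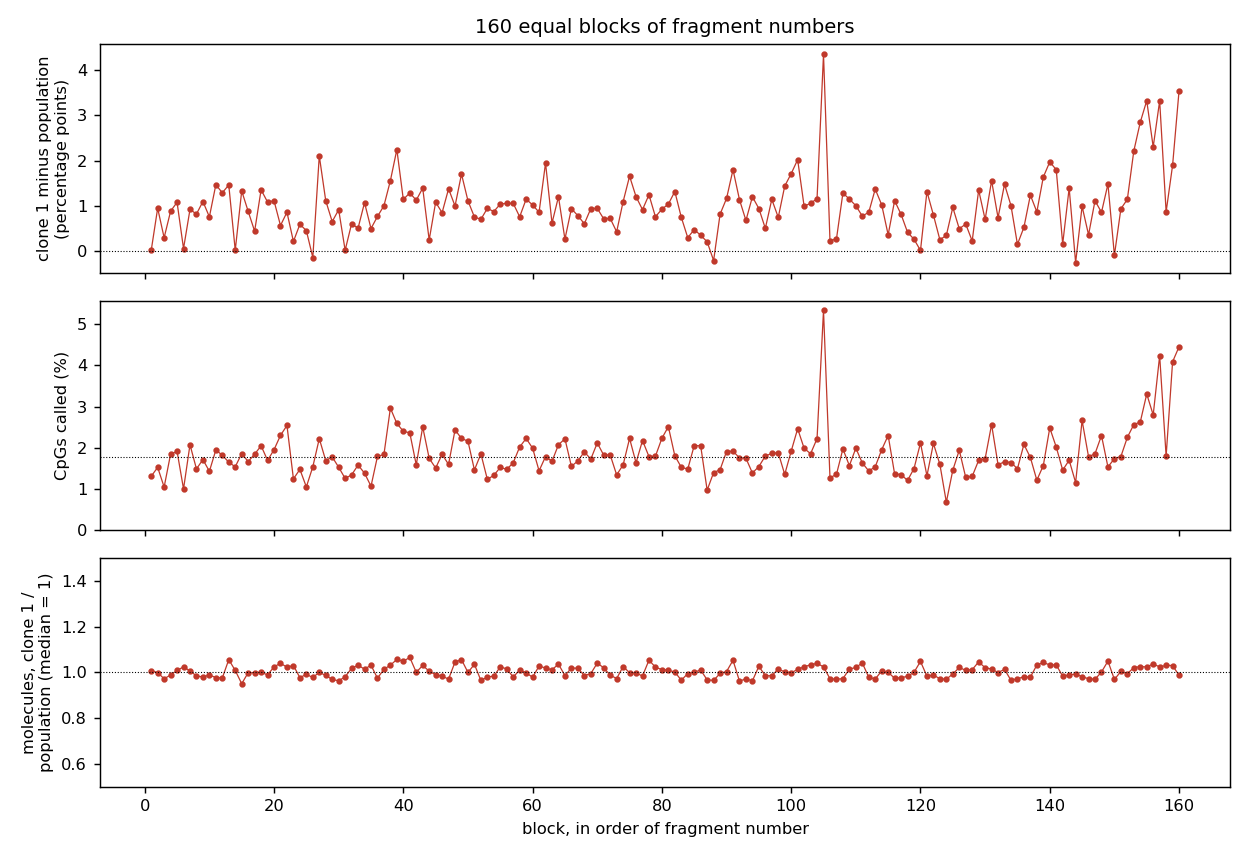
For 160 equal blocks of fragment numbers, in order, the panels give mean methylation of clone 1 minus population (percentage points), the share of CpGs called (percent, dotted line at the median) and the ratio of clone 1 to population molecules relative to its median. The 105th block stands highest, at 4.35 points and 5.34% called, where the ratio of molecules is near its median.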

How the data were processed

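DNA methylation was measured by MspI digestion, molecular tags and bisulfite sequencing. Bismark and mouse build mm9 were used, per the submitters' processing notes. For the version, filters and pooling of replicates, the record is: not given in the sources used here. The deposited files hold, per fragment number, strand and 6-base tag, a pattern string (other) and a read count made by the authors, not normalized. Each line was taken as 1 molecule of any read count: 77.7% of clone 1 and 59.7% of population molecules had 1 read. With 77 tags in use, separate molecules of deep fragments can share a tag.

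CpGs with at least 10 molecules in both libraries were compared by Fisher's exact test, two-sided, p-values adjusted over all CpGs tested by Benjamini-Hochberg. Calls needed an adjusted p below 0.05 plus 20 points of difference or more. Fragments with at least 4 CpGs were tested alike on molecules with at least 4 observed CpGs, methylated if over 50% of these were. End CpGs are read on 1 strand only, so nearly all fragments with exactly 4 CpGs drop out. Named fragments are the 5 called ones with the widest difference per direction, and the 3 with the most molecules in the shallower library in each kind of change and among those at 40 to 60% in both libraries. The members, classes and this rule were chosen with earlier results of these data known. Samples were grouped by the labels' titles. The tests were tested on simulated data. Wilson intervals are at 95%. Alternatives changed the molecule minimum, read minimum, strand, fragment ends, tag merging and methylation threshold. Computation used Python 3.11.15, numpy 2.4.6, scipy 1.17.1, pandas 2.3.3, numba 0.67.0 and matplotlib 3.10.9. Gene annotation was not analysed here.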

Additional observations from a re-analysis of the deposited data

How the results depend on the processing

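No paired analysis was possible because both clone 1 replicates share 1 deposited file and the population has 1 sample, and for the same reason no replicate could be left out. The mean difference kept its sign under every alternative run, from 0.675 to 1.05 points. Calls of CpGs, 14992 as reported, numbered 9495 and 2166 with at least 20 and 30 molecules, 290 on molecules with at least 2 reads, 2283 and 2394 on the plus and minus strand alone, and 5413 with 1 CpG per fragment. The share of higher calls turned under 3 of these, to 45.2% (30 molecules), 41.7% (2 reads) and 45.8% (1 CpG per fragment). Calls of fragments, 804 as reported, numbered 530 and 98 with at least 20 and 30 molecules, 17 with at least 2 reads, and 94 and 95 on the plus and minus strand. Chosen after seeing the data, molecules with at least 3 observed CpGs gave 1231, those with any observed CpG 1539, and testing each fragment's deepest CpG 2223. Higher fragments were 55.3% of calls with an 80% threshold per molecule, 87.7% with 20% and 58.0% by deepest CpG. Strand calls within the population were 2.06% with at least 20 molecules per strand, against 0.0259%. Fewer features or molecules entered most of these; beyond that, the cause was not tested. Requiring every CpG of a fragment observed left 44 fragments, with 0 calls by Fisher's exact test and 0 with an unadjusted p under 0.05. For the 25 called named fragments, 262 of 320 values kept direction and call, 56 lost the call and 2 turned: fragment 178898 to -2.64 points under the 80% threshold and fragment 760730 to 4.01 under the 20% threshold. The 3 named without a call stayed uncalled, between -10.2 and 9.27 points.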

Other observations

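Coverage of the called fragments was set beside their change. The median log2 ratio of clone 1 to population molecules, centred on all tested fragments, was 0.19 for fragments called higher and 0.06 for those called lower. Among the kinds of change it was -0.01 for unmethylated fragments that stood at 40 to 60% in clone 1, 0.27 for methylated ones that did so, 0.28 for the 18 that switched up and -0.41 for the 3 that switched down. The part of coverage in these results was not tested.

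In windows of 1000 fragment numbers with at least 200 tested CpGs, 1545 in all, the mean difference of clone 1 from the population ranged from -3.97 to 8.79 points with a median of 0.790. The share of CpGs called ranged from 0 to 9.28% with a median of 1.66%.

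Fragments at 40 to 60% with enough molecules on each strand numbered 927 in clone 1, and 26 of them (2.80%) differed between their strands by the same test. In the population there were 513, of which 2 (0.390%) differed. The sets of fragments were not the same. Clone 1 was the deeper library, with a median of 23 molecules per tested fragment against 19, and the part of depth was not tested.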
